A study of Mus musculus with 12 samples.

Results

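The levels of 10 microtubule genes were followed across subcortical white matter of transgenic mice. They were Mapt (tau), Map2, Map4, Map1a, Map1b, Tubb4a, Tppp, Tppp3, Stmn1 and Stmn4, 10 of 33864 loci in the table. The set was picked because Mapt fell in ErbB2V664E mutants, so the members were chosen by their Mapt values in that contrast, which are given below as a description without a test. Where a symbol occurred at several loci, the one with the highest mean over the 12 libraries was read. All 10 passed the filter on low values.

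RNA of 12 mice was sequenced, 1 library per mouse, in 4 groups of 3, with each mutant paired by the labels to a littermate control. dnEGFR mutants (Sox10-tTA;TRE-dnEGFR) and their controls (TRE-dnEGFR) were sampled at postnatal day 35 and received doxycycline from day 21 to 35. ErbB2V664E mutants (Sox10-tTA;TRE-ErbB2V664E) and their controls (TRE-ErbB2V664E) were sampled at day 30 and received it from day 21 to 30. The series title names activation or inhibition of ErbB receptors, the cell surface kinases that bind EGF and neuregulins, in oligodendroglial cells. The transactivator tTA is driven by Sox10, which is expressed throughout the oligodendrocyte lineage, and it drives transgenes under a TRE promoter. dnEGFR stands for a dominant-negative EGF receptor, which blocks signalling, and ErbB2V664E for an ErbB2 receptor made constitutively active by a change in its membrane-spanning part. Every group received doxycycline, and all controls carried the responder without tTA. No group carried tTA alone, and the sources used here do not state if the drug turned transgene expression on or off.

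Microtubules are hollow polymers of alpha and beta tubulin that grow and shrink at their ends. Proteins of the tau and MAP1 families bind along the polymer, TPPP proteins bundle it, and stathmins hold free tubulin dimers and favour disassembly. In white matter, microtubules run along axons and through the processes and myelin sheaths of oligodendrocytes, where they carry messenger RNA such as that of myelin basic protein outward. Tau is best known from axons, and oligodendrocytes make it too.

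Values are FPKM, in which fragments are divided by transcript length and by the mapped total of the library, so levels can be set side by side between genes. Summed FPKM lay between 117363 and 134410 per library. The totals did not overlap between the lines, at 117363 to 125911 in the dnEGFR line and 127253 to 134410 in the ErbB2V664E line. Values compared between the lines were not scaled for this. The steps between low values correspond to an estimated depth that lets 1 FPKM of a transcript of 2 kb stand for 33.2 to 49.5 fragments. The loci named Egfr and Erbb2 did not mark the transgenes. Egfr lay at 2.77 to 3.08 FPKM in dnEGFR mutants and at 2.64 to 3.32 FPKM in dnEGFR controls, and Erbb2 at 0.833 to 0.894 FPKM in ErbB2V664E mutants and at 0.772 to 0.970 FPKM in ErbB2V664E controls. No source used here states if transgene transcripts could be assigned to these loci. The oligodendrocyte markers Mbp (427 FPKM or more) and Mog (6.62 FPKM or more) were present in each library. So were the neuronal markers Snap25 (74.2 FPKM or more) and Rbfox3 (10.2 FPKM or more), so the pieces held neuronal RNA as well. In such bulk tissue, fewer cells of a type and less RNA per cell cannot be told apart.

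Averaged over the 12 libraries, the beta tubulin gene Tubb4a stood highest with 266 FPKM. It was followed by Stmn1 with 124, Map1a with 106, Stmn4 with 99.3, Tppp with 54.0, Map1b with 44.1, Mapt with 38.04, Map2 with 21.8, Map4 with 20.0 and Tppp3 with 5.90 FPKM. Of the 9 neighbouring pairs in this order, 8 had overlapping ranges over the 12 libraries, so most ranks are not separated beyond the spread. The exception was Map4, whose lowest value of 16.4 FPKM lay above the highest of Tppp3, 7.01 FPKM.

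Promoter sequence could be shown for a pair of genes that lay below all controls in ErbB2V664E mutants, the group of members with Mapt and Stmn4. The RefSeq promoter table (build GRCm38.p6) had an entry for 6 of the 10 members, Map2, Map1a, Map4, Tppp, Map1b and Tubb4a. The 250 bases before the start of Tubb4a (chr17:57087601-57087850, minus strand) and of the first Map4 start (chr9:109931524-109931773, plus strand) are printed 5′ to 3′, with motif matches in capitals.
Tubb4a: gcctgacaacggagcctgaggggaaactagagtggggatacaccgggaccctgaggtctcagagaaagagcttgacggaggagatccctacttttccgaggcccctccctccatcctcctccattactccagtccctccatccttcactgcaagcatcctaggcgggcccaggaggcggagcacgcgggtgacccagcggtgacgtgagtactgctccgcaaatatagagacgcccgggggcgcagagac
Map4: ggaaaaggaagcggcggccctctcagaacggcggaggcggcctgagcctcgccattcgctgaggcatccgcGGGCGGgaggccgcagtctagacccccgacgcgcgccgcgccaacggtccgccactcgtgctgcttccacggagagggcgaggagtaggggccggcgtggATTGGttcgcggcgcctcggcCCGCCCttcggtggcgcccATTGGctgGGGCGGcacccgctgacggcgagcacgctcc
Searched on both strands were the GC box GGGCGG, the SOX core ACAAAG and the CCAAT box CCAAT, which 32.7%, 16.5% and 33.8% of 32851 promoters of this length held. The first Map4 start had 3 GC box and 2 CCAAT box matches in 74% GC, and Tubb4a had 0 matches of any of them in 61.6% GC. A second Map4 start, not printed, had 0 GC box matches and 1 CCAAT box match in 43.6% GC. The pair shared no match in this window, and a match or its absence says nothing about binding.

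Mapt gives the tau family its name. Its protein, tau, binds along microtubules and stabilises them. It measured 28.5, 25.1 and 33.6 FPKM in ErbB2V664E mutants, against 44.2, 46.4 and 48.7 FPKM in ErbB2V664E controls. All 3 mutants lay below all 3 controls, and so each below its littermate, with means of 29.1 ± 4.31 and 46.4 ± 2.25 FPKM (SD, n = 3 each). The difference on the log2(FPKM + 1) scale was -0.67 with a standard error of 0.11, and it stayed between -0.77 and -0.57 when single libraries were left out. This is the difference for which the set was picked.

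The dnEGFR line was not used to choose Mapt. There it measured 43.6, 39.1 and 39.4 FPKM in mutants, against 35.7, 38.2 and 34.0 FPKM in controls. Mutants lay above all controls, and so each above its littermate, by a small step. The log2 difference of 0.17 (SE 0.11, 95% interval -0.07 to 0.42) did not pass the test (limma, adjusted p = 0.964). At 3 further Mapt loci, which averaged 4.91, 4.82 and 1.73 FPKM and held no transcript of GENCODE M21, values were uneven, and the first was listed at 0 in 5 libraries. With all 4 loci summed, the log2 difference was -0.02 in the dnEGFR line and -0.75 in the ErbB2V664E line, so the sign in the dnEGFR line depends on the locus read.

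Map4, a broadly expressed relative of tau outside neurons, had 20.99, 16.5 and 16.4 FPKM in ErbB2V664E mutants, against 21.9, 22.8 and 23.4 FPKM in ErbB2V664E controls. Mutants lay below all controls, though the first only just, and the log2 difference was -0.33 (SE 0.12). In dnEGFR mutants Map4 measured 19.2, 17.5 and 22.3 FPKM, against 20.9, 19.4 and 18.2 FPKM in dnEGFR controls. These ranges overlapped, and the log2 difference was 0.01 (SE 0.12, 95% interval -0.26 to 0.28, limma adjusted p = 1). That value took a negative sign under both other scalings of the libraries, -0.00 after median scaling and -0.02 after quantile normalisation.

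Map2, the tau relative of neuronal dendrites, was uneven in the ErbB2V664E line. It had 13.8, 8.12 and 13.1 FPKM in ErbB2V664E mutants, against 28.7, 11.98 and 18.5 FPKM in ErbB2V664E controls. Each mutant was below its littermate, yet the groups overlapped through the second control, and the log2 difference was -0.66 (SE 0.28). It was -0.96 without ErbB2V664E control 2 and -0.36 without ErbB2V664E control 1. Across the dnEGFR line it had 27.1, 22.6 and 28.3 FPKM in mutants, against 27.0, 29.999 and 32.5 FPKM in controls. These groups overlapped as well, with a log2 difference of -0.19 (SE 0.28, 95% interval -0.81 to 0.43, limma adjusted p = 1). The standard error comes from a spread shared by the 4 groups, which includes the uneven ErbB2V664E line.

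**Figure D1:**
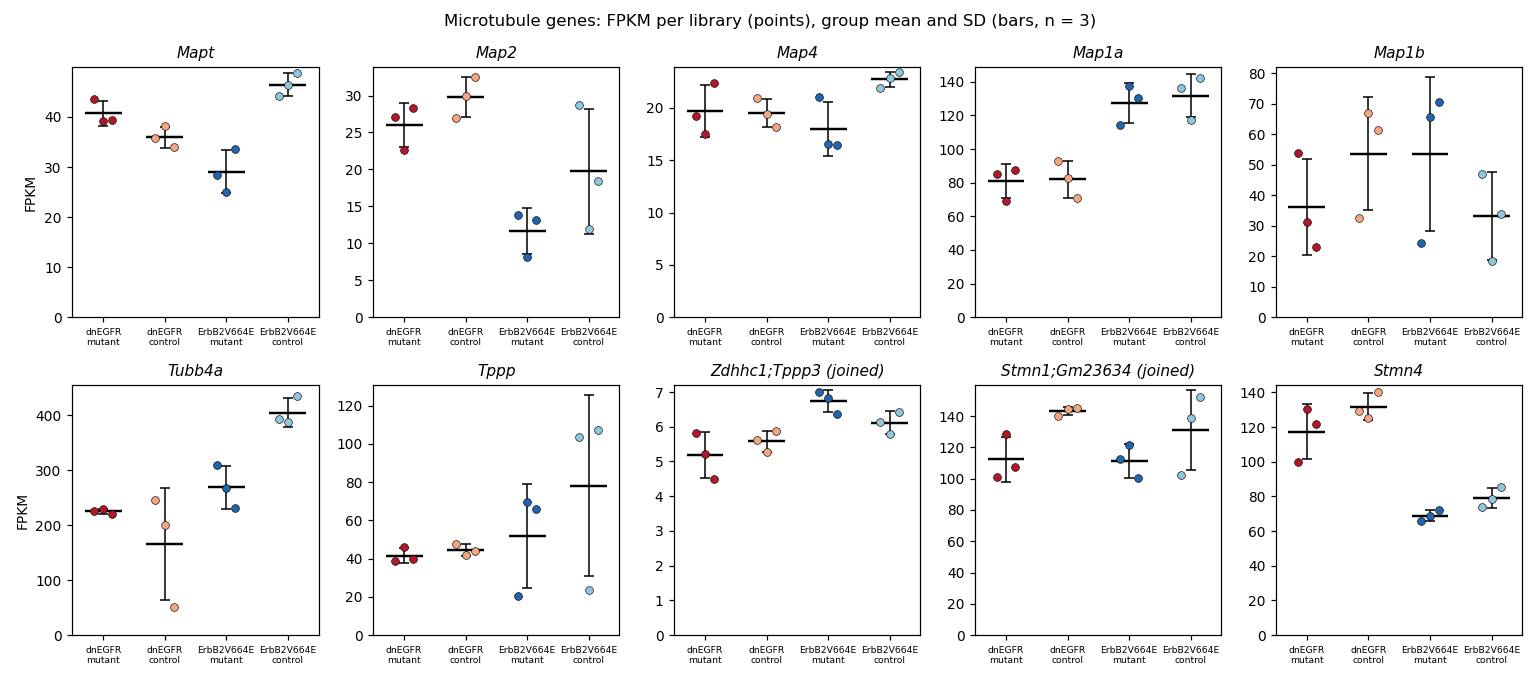
FPKM of the 10 microtubule genes in each library (points), by group, with the group mean (horizontal bar) and SD (whiskers, n = 3); each panel has its own axis, starting at 0. In the Mapt panel the 3 ErbB2V664E mutants, at 25.1 to 33.6 FPKM, lie below every other library, and the Tubb4a panel shows 1 dnEGFR control at 50.4 FPKM.

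The MAP1 family holds large proteins that bind microtubules along axons and dendrites. Map1a, the form of mature neurons, had 115, 137 and 130 FPKM in ErbB2V664E mutants, against 136, 117 and 142 FPKM in ErbB2V664E controls, and in the dnEGFR line 85.3, 69.4 and 87.8 FPKM in mutants, against 92.7, 82.8 and 70.7 FPKM in controls. Mutants and controls overlapped in both lines. The log2 differences were -0.05 (SE 0.14) in the ErbB2V664E line and -0.02 in the dnEGFR line (SE 0.14, 95% interval -0.32 to 0.28, limma adjusted p = 1).

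Map1a differed between the lines. All 6 libraries of the dnEGFR line, at 69.4 to 92.7 FPKM, lay below all 6 of the ErbB2V664E line, at 115 to 142 FPKM, with a log2 difference (dnEGFR minus ErbB2V664E) of -0.67. Map1a and Stmn4 were the 2 of 10 members whose lines did not overlap, where 19.9% of 13803 loci had no overlap between the lines, so 2 of 10 is near the background. Line, age and length of doxycycline treatment cannot be told apart. The summed neuronal marker level was 702 to 1017 FPKM in the dnEGFR line and 909 to 1168 FPKM in the ErbB2V664E line, and its part in these line differences was not tested.

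Map1b, the form of growing axons, was uneven within each group. It had 53.7, 31.3 and 23.2 FPKM in dnEGFR mutants, against 32.5, 66.9 and 61.4 FPKM in dnEGFR controls. It had 24.4, 65.6 and 70.5 FPKM in ErbB2V664E mutants, against 47.1, 18.5 and 34.0 FPKM in ErbB2V664E controls. High and low libraries occurred in every group, over a more than 2-fold range. The log2 difference was -0.58 in the dnEGFR line (SE 0.49, 95% interval -1.68 to 0.52, limma adjusted p = 0.987) and 0.63 in the ErbB2V664E line (SE 0.49). Leaving out single libraries gave -0.90 (without mutant 1 or control 1) to -0.31 (without mutant 3) in the dnEGFR line and 0.27 (without control 2) to 1.11 (without mutant 1) in the ErbB2V664E line.

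Tubb4a encodes the beta tubulin that is abundant in myelinating oligodendrocytes and is mutated in a human hypomyelinating leukodystrophy. It had 309, 268 and 231 FPKM in ErbB2V664E mutants, against 393, 387 and 435 FPKM in ErbB2V664E controls. All mutants lay below all controls, with means of 269 ± 39.3 and 405 ± 26.3 FPKM (SD, n = 3 each) and a log2 difference of -0.60. The standard error of that difference, 0.46, comes from a spread shared by the 4 groups, which includes the dnEGFR control at 50.4 FPKM. In dnEGFR mutants Tubb4a had 226, 230 and 220 FPKM, against 246, 200 and 50.4 FPKM in dnEGFR controls. The third control stood far below the other libraries, and the groups overlapped. The log2 difference of 0.73 (SE 0.46, 95% interval -0.30 to 1.75, limma adjusted p = 0.964) became 0.02 without that control. For the ErbB2V664E line, leaving out single libraries gave -0.70 to -0.49.

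TPPP proteins bundle microtubules, and Tppp itself marks oligodendrocytes, in which its protein organises microtubules at Golgi outposts. It had 20.5, 69.5 and 65.9 FPKM in ErbB2V664E mutants, against 104, 23.4 and 107 FPKM in ErbB2V664E controls. One library in each group stood apart at a low level, the groups overlapped, and the log2 difference of -0.48 (SE 0.58) ran from -1.19 to 0.08 when single libraries were left out. Across the dnEGFR line it was even, with 39.0, 46.0 and 39.8 FPKM in mutants, against 47.8, 41.9 and 43.9 FPKM in controls. The log2 difference there was -0.10 (SE 0.58, 95% interval -1.38 to 1.18, limma adjusted p = 1). As for Tubb4a, this standard error comes from a spread shared by the 4 groups, which includes the uneven ErbB2V664E line.

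Tppp3, a smaller TPPP protein, was read from a locus joined with Zdhhc1, a palmitoyltransferase gene, so its own share of the value is unknown. The joined locus had 7.01, 6.82 and 6.38 FPKM in ErbB2V664E mutants, against 6.14, 5.78 and 6.43 FPKM in ErbB2V664E controls, which overlapped at a log2 difference of 0.12 (SE 0.09). In dnEGFR mutants it had 5.83, 5.20 and 4.50 FPKM, against 5.61, 5.26 and 5.87 FPKM in dnEGFR controls. These overlapped too, with a log2 difference of -0.10 (SE 0.09, 95% interval -0.30 to 0.11, limma adjusted p = 0.992).

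Stathmins bind tubulin dimers and favour disassembly, and Stmn1 is the widely expressed founder of the family. Its locus was joined with the microRNA gene Gm23634. It had 101, 129 and 107 FPKM in dnEGFR mutants, against 140, 144 and 145 FPKM in dnEGFR controls. Mutants lay below all controls, and so each below its littermate, and no other member did so in this line. The log2 difference of -0.35 (SE 0.15, 95% interval -0.69 to -0.02) did not pass the threshold over all loci (limma, adjusted p = 0.864). In the ErbB2V664E line Stmn1 had 112, 122 and 100 FPKM in mutants, against 103, 138 and 152 FPKM in controls, which overlapped at a log2 difference of -0.22 (SE 0.15).

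Stmn4, a stathmin of neurons that also occurs in oligodendrocytes, had 65.7, 68.9 and 72.1 FPKM in ErbB2V664E mutants, against 73.9, 78.3 and 85.5 FPKM in ErbB2V664E controls. The groups sat close together without overlap, and so each mutant lay below its littermate, with a log2 difference of -0.20 (SE 0.11). It had 99.7, 130 and 122 FPKM in dnEGFR mutants, against 129, 125 and 140 FPKM in dnEGFR controls. Those overlapped at a log2 difference of -0.17 (SE 0.11, 95% interval -0.42 to 0.07, limma adjusted p = 0.964). Between the lines, 99.7 to 140 FPKM in the dnEGFR line stood above 65.7 to 85.5 FPKM in the ErbB2V664E line, a log2 difference (dnEGFR minus ErbB2V664E) of 0.74.

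Counted together, 0 of the 10 members passed the limma test in the dnEGFR line, where 0.0942% of 13803 loci did. Only Stmn1 had an unadjusted p under 0.05, against 5.69% of all loci, and adjusted p-values ran from 0.864 to 1. The median log2 difference was -0.10, with 3 positive and 7 negative, beside 0.01 over all loci. The groups did not overlap for 1 member with mutants above, Mapt, and 1 with mutants below, Stmn1, and 5.58% of all loci had mutants above, 4.57% had them below and 10.1% had no overlap in either direction. In the ErbB2V664E line, 4 members had mutants below all controls (Mapt, Map4, Tubb4a and Stmn4) and 0 had them above, where 8.96% of loci had mutants below, 9.28% had them above and 18.2% had no overlap in either direction. The median was -0.27, with 2 positive and 8 negative, beside 0.00 over all loci. The members were chosen with this line in view, so nothing is read from that count. Both lines' differences are set side by side without a test between them.

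**Figure D2:**
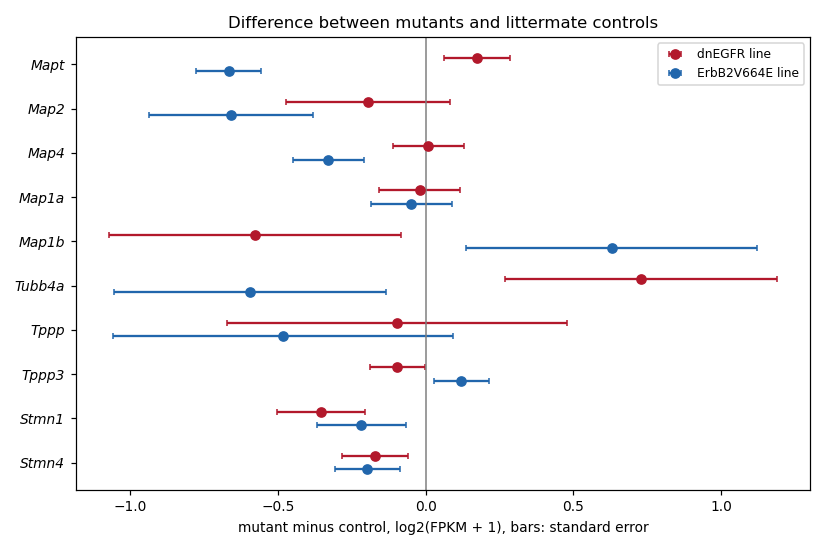
Log2 difference, mutants minus littermate controls, on the log2(FPKM + 1) scale for each member, with the standard error from the fit over 12 libraries as bars. The dnEGFR line is drawn above the ErbB2V664E line for each gene; Mapt lies at 0.17 and -0.67, and Map1b, Tppp and Tubb4a have the widest bars.

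The members also differed in how even they were within groups. Tppp, Map1b, Tubb4a and Map2, 4 of 10, had a highest library more than 2 times the lowest in at least 1 group. This held for 30.1% of 5233 loci with a mean of 5 FPKM or more, so the share among members is not far from the background. Mapt, by contrast, had a coefficient of variation between 4.84% and 14.8% in the 4 groups.

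Markers of several cell types had lower values in ErbB2V664E mutants. The summed level of 10 mature oligodendrocyte markers was 600.3 to 972 FPKM in ErbB2V664E mutants, against 914 to 1588 FPKM in ErbB2V664E controls, with overlap. All 10 markers had a negative difference, with a median of -0.77 (log2), and 1 was called by limma, where 0.275% of all loci were called. Over all 13803 loci, 6766 differences were negative and 7011 positive in this line. The 6 precursor markers also all had negative differences (median -0.17), with sums of 27.9 to 38.9 FPKM in mutants and 36.4 to 39.9 FPKM in controls. Of 8 microglial markers 7 were negative (median -0.53), with sums of 61.9 to 103 FPKM in mutants and 98.6 to 130 FPKM in controls. Of the tested astrocyte markers 5 of 6 were negative (median -0.39), with sums of 199 to 230 FPKM in mutants and 239 to 417 FPKM in controls.

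Neuronal markers did not separate the ErbB2V664E groups. Their 12-gene sum was 909 to 1168 FPKM in ErbB2V664E mutants and 921 to 1065 FPKM in ErbB2V664E controls, with 8 positive and 4 negative differences (median 0.08). Haemoglobin and other red blood cell transcripts summed to 22.1 to 118 FPKM in mutants and 95.5 to 214 FPKM in controls, with all 5 negative (median -1.57). Tested neuroblast markers were negative in 5 of 6 (median -0.34) and tested ependymal markers in 5 of 5 (median -0.41). Of 6 fibroblast markers, 2 were tested, 1 in each direction. No marker of any list was at 0 in all 12 libraries. The part of these markers in the lower Mapt, Map4, Tubb4a and Stmn4 values was not tested.

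The same lists were read in the dnEGFR line. Mature oligodendrocyte markers summed to 803 to 997 FPKM in dnEGFR mutants and 777 to 1035 FPKM in dnEGFR controls (median -0.11), and neuronal markers to 702 to 1012 FPKM in mutants and 885 to 1017 FPKM in controls (median -0.09). Precursor markers summed to 37.0 to 54.2 FPKM in dnEGFR mutants, above the 25.9 to 33.4 FPKM of dnEGFR controls, though their differences were 3 positive and 3 negative (median 0.07). Astrocyte markers had a median of -0.04, microglial markers one of 0.10, neuroblast markers 0.01, ependymal markers 0.04 and the 2 tested fibroblast markers -0.18. Red blood cell transcripts had the widest median, 0.46, with sums of 116 to 279 FPKM in mutants and 126 to 155 FPKM in controls. The part of any of these in the Stmn1 and Mapt values of the dnEGFR line was not tested.

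The patterns most like that of Mapt were looked for among 2338 loci of 1 symbol with a mean of 10 FPKM or more, as the root mean square difference of centred log2(FPKM + 1) over the 12 libraries. Hras, the small GTPase of the Ras pathway, was nearest at 0.131. It was followed by the ceramide synthase gene Cers2 (0.143), the microglial protease gene Ctss (0.164), 9430020K01Rik (0.165) and the catalase gene Cat (0.172), where Mapt itself had a standard deviation of 0.277. Hras averaged 11.3 ± 0.605 FPKM in ErbB2V664E mutants, 15.7 ± 1.07 in ErbB2V664E controls, 15.2 ± 1.92 in dnEGFR mutants and 13.6 ± 0.777 in dnEGFR controls (SD, n = 3 each). Cers2, which makes the very long chain ceramides of myelin lipids, averaged 16.2 ± 2.57 FPKM in ErbB2V664E mutants, against 21.6 ± 1.49 FPKM in ErbB2V664E controls. Both were picked by their likeness to Mapt in these same 12 libraries. Their lower means in ErbB2V664E mutants follow from that choice and are no separate result. Among the members, Map4 was nearest to Mapt (0.207, rank 18) and Map1b farthest (0.755, rank 2050), so the set did not share 1 pattern.

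A wider list of 138 microtubule genes in 9 roles was read in the same fit. Of these, 137 were found, Kif2b being the exception, and 129 passed the filter at 128 loci. Mutants lay above all controls at 12 loci and below them at 5 in the dnEGFR line, beside 5.58% and 4.57% of all loci. In the ErbB2V664E line they lay above at 15 loci and below at 17, beside 9.28% and 8.96% of all loci. In the dnEGFR line limma called 0 of 128, where 0.0942% of all loci were called, with 12 at an unadjusted p under 0.05, beside 5.69% of all loci (10 higher and 2 lower), a median of -0.01 and a lowest adjusted p of 0.671. In the ErbB2V664E line it called 0 as well, where 0.275% of all loci were called, with 20 at an unadjusted p under 0.05, beside 12.1% of all loci (9 higher and 11 lower), a median of 0.00 and a lowest adjusted p of 0.134. That lowest value belonged to Kif1a, the motor of synaptic vesicle precursors, named here after its values were seen. It averaged 155 ± 10.5 FPKM in mutants and 112 ± 4.64 FPKM in controls (SD, n = 3 each), a log2 difference of 0.46.

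**Figure D3:**
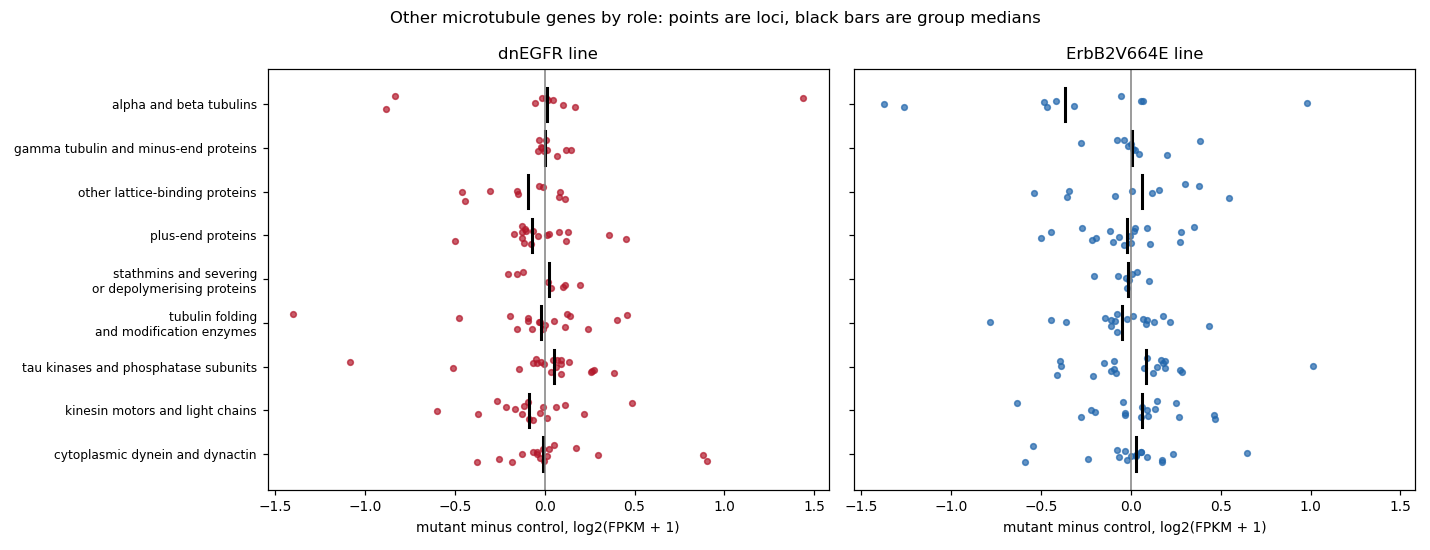
Log2 difference, mutants minus controls, on the log2(FPKM + 1) scale for each tested locus of the wider list (points), by role, with the median of each role as a black bar; the dnEGFR line is on the left and the ErbB2V664E line on the right. The medians lie near 0 except that of alpha and beta tubulins in the ErbB2V664E line, at -0.37.

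Other tubulins were the role farthest from 0 in the ErbB2V664E line. Near-identical tubulin copies can share fragments, so single tubulin values are uncertain. Of 10 alpha and beta tubulin loci, 7 had a negative and 3 a positive difference (median -0.37), and 6 had mutants below all controls (Tuba1a joined with Tuba1b, Tuba1c, Tuba4a, Tubb3, Tubb4b and Tubb5), where 8.96% of all loci did. None was called by limma, 4 had an unadjusted p under 0.05, beside 12.1% of all loci, and the lowest adjusted p was 0.154. In the dnEGFR line the median of these loci was 0.01, with 6 positive and 4 negative.

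The joined Tuba1a and Tuba1b locus, the alpha tubulins made throughout the nervous system, had no library far from its group. It measured 115, 92.1 and 93.3 FPKM in ErbB2V664E mutants, against 135, 141 and 143 FPKM in ErbB2V664E controls, a log2 difference of -0.48 (SE 0.12, limma adjusted p = 0.154). It averaged 105 ± 11.03 FPKM in dnEGFR mutants and 110 ± 12.5 FPKM in dnEGFR controls (SD, n = 3 each), a log2 difference of -0.05. Tubb3, the beta tubulin of neurons, had 70.9, 12.5 and 61.7 FPKM in ErbB2V664E mutants, against 95.5, 103 and 104 FPKM in ErbB2V664E controls. The second mutant was far below the rest, and the log2 difference of -1.37 (SE 0.50) did not pass (limma, adjusted p = 0.295). Tubb4b, a beta tubulin of many tissues, had 12.8, 49.8 and 45.6 FPKM in ErbB2V664E mutants, against 70.8, 81.1 and 75.1 FPKM in ErbB2V664E controls, with the first mutant lowest (log2 difference -1.26, limma adjusted p = 0.428).

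Tuba4a, an alpha tubulin of mature brain, was lower than the littermate control in each pair of both lines. It had 41.2, 32.8 and 32.7 FPKM in ErbB2V664E mutants, against 53.7, 49.96 and 44.7 FPKM in ErbB2V664E controls, and 53.9, 27.2 and 23.2 FPKM in dnEGFR mutants, against 82.0, 51.2 and 47.7 FPKM in dnEGFR controls. The log2 differences were -0.47 (limma, adjusted p = 0.572) and -0.83 (limma, adjusted p = 0.755), and the dnEGFR groups overlapped. Tubb2b, a beta tubulin of developing brain, lay above all controls in dnEGFR mutants. It had 39.3, 46.2 and 50.9 FPKM in dnEGFR mutants, against 9.95, 20.0 and 20.5 FPKM in dnEGFR controls, a log2 difference of 1.44 (SE 0.44) that did not pass (limma, adjusted p = 0.671). Its neighbour in sequence, Tubb2a, had 128, 99.2 and 116 FPKM in ErbB2V664E mutants, against 32.6, 161 and 35.01 FPKM in ErbB2V664E controls, so 1 control stood above all mutants and the others far below them.

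**Figure D4:**
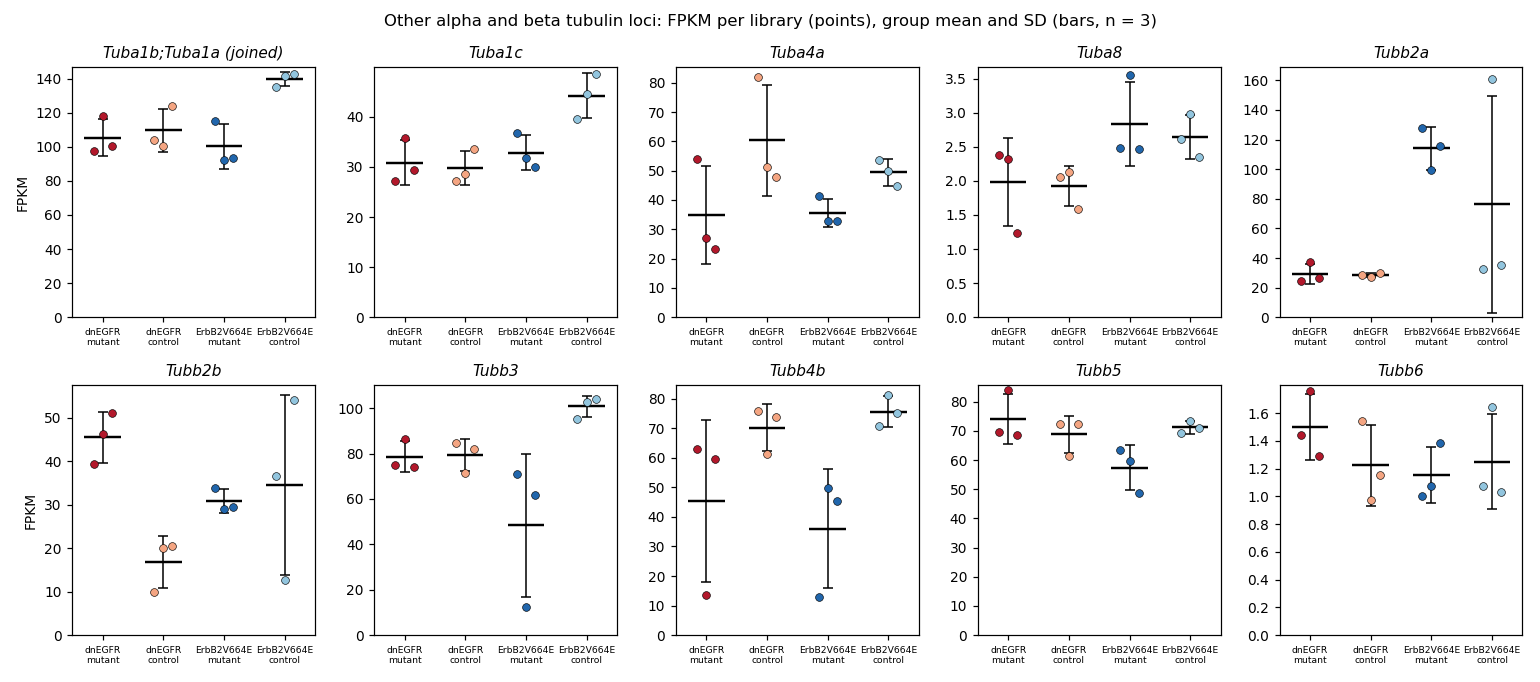
FPKM of the 10 other alpha and beta tubulin loci in each library (points), by group, with the group mean (horizontal bar) and SD (whiskers, n = 3); axes start at 0. The joined Tuba1b and Tuba1a locus has ErbB2V664E mutants at 92.1 to 115 FPKM below controls at 135 to 143 FPKM, while Tubb2a, Tubb2b, Tubb3 and Tubb4b each hold a group with a library far from the others.

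Enzymes and kinases that act on tubulin or tau gave no calls. Agtpbp1, which removes glutamates from the tubulin tail, averaged 6.63 ± 1.51 FPKM in ErbB2V664E mutants and 9.26 ± 0.433 FPKM in ErbB2V664E controls (log2 difference -0.44, limma adjusted p = 0.206). The tubulin deacetylase gene Hdac6 averaged 6.22 ± 0.136 FPKM in ErbB2V664E mutants and 6.97 ± 0.260 FPKM in ErbB2V664E controls, without overlap (log2 difference -0.14, limma adjusted p = 0.438). Ttll7, which adds glutamates to beta tubulin, had 16.5, 8.05 and 21.8 FPKM in ErbB2V664E mutants, against 27.2, 26.2 and 23.0 FPKM in ErbB2V664E controls (log2 difference -0.78, limma adjusted p = 0.475). Vash1 and Ttl, which remove and restore the terminal tyrosine of alpha tubulin, had 1 low dnEGFR mutant each. Vash1 had 10.6, 0 and 9.92 FPKM in dnEGFR mutants, against 12.5, 11.7 and 12.5 FPKM in dnEGFR controls, the second mutant being listed at 0. Ttl had 13.2, 3.90 and 12.5 FPKM in dnEGFR mutants, against 14.05, 12.2 and 11.7 FPKM in dnEGFR controls. Sirt2, the tubulin deacetylase of oligodendrocytes, overlapped in both lines, with log2 differences of 0.07 in the ErbB2V664E line and -0.09 in the dnEGFR line.

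Of the tau kinases and their subunits, Mark1, which phosphorylates tau and frees it from microtubules, averaged 9.60 ± 1.76 FPKM in ErbB2V664E mutants and 13.03 ± 1.78 FPKM in ErbB2V664E controls (log2 difference -0.41, limma adjusted p = 0.222). Mark1 groups overlapped in both lines. Fyn, the kinase that binds tau in oligodendrocyte processes, overlapped in both lines, with log2 differences of -0.15 in the ErbB2V664E line and 0.09 in the dnEGFR line. Ttbk1, the tau tubulin kinase of neurons, had 5.07, 3.34 and 3.86 FPKM in dnEGFR mutants, against 6.52, 6.60 and 5.46 FPKM in dnEGFR controls (log2 difference -0.51, limma adjusted p = 0.689). Cdk5r1, the p35 activator of the kinase Cdk5, had 7.16, 4.27 and 3.04 FPKM in ErbB2V664E mutants, against 1.43, 1.39 and 2.66 FPKM in ErbB2V664E controls. Across the dnEGFR line it ran from 1.77 to 34.8 FPKM in mutants and from 2.02 to 34.1 FPKM in controls, so single libraries set its level.

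Plus-end proteins, other lattice-binding proteins and stathmins gave no calls either. Dst, the dystonin gene whose protein links microtubules to other filaments, had 8.34, 5.91 and 8.13 FPKM in ErbB2V664E mutants, against 11.3, 9.61 and 11.8 FPKM in ErbB2V664E controls. Mutants lay below all controls, with a log2 difference of -0.50 (SE 0.13, limma adjusted p = 0.154). Dclk1, a doublecortin-like kinase, had 52.6, 46.5 and 48.7 FPKM in ErbB2V664E mutants, against 38.8, 31.1 and 31.0 FPKM in ErbB2V664E controls, above all controls (log2 difference 0.54, limma adjusted p = 0.337). The neuronal stathmins Stmn2 and Stmn3 had log2 differences of 0.01 and -0.01 in the ErbB2V664E line and -0.16 and -0.21 in the dnEGFR line, with overlap in both. Doublecortin (Dcx), of migrating neurons, and the stabiliser Map6 lay under 5 FPKM in each library. The Map6 relative Map6d1 and the lattice-binding gene Map9 had log2 differences of -0.54 and -0.36 in the ErbB2V664E line and -0.46 and -0.44 in the dnEGFR line, all with overlap. Slain1, a plus-end gene, averaged 15.2 ± 3.77 FPKM in ErbB2V664E mutants and 20.7 ± 0.576 FPKM in ErbB2V664E controls, below all controls (log2 difference -0.44, limma adjusted p = 0.375). Pafah1b1, the lissencephaly gene, and Mapre2, an end-binding gene, had log2 differences of -0.50 and 0.45 in the dnEGFR line with overlap (limma, adjusted p = 0.997 and 0.953).

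Of the severing and depolymerising genes, Katnal1, Katnal2 and the kinesin Kif2a had log2 differences of -0.07, -0.21 and 0.10 in the ErbB2V664E line and 0.20, 0.11 and -0.12 in the dnEGFR line, with overlap in each. At minus ends, Tubg2, a gamma tubulin, averaged 14.5 ± 1.04 FPKM in dnEGFR mutants and 12.9 ± 0.627 FPKM in dnEGFR controls, and 22.9 ± 4.64 FPKM in ErbB2V664E mutants and 17.2 ± 3.14 FPKM in ErbB2V664E controls. Its log2 differences of 0.15 and 0.39 did not pass (limma, adjusted p = 0.992 and 0.358). Tubgcp3, a gamma tubulin ring component, and Camsap2, a minus-end protein, had log2 differences of -0.01 and -0.27 in the ErbB2V664E line and 0.12 and -0.02 in the dnEGFR line. Groups without overlap among these were Tubg2 and Tubgcp3 in the dnEGFR line, both with mutants above, as 5.58% of all loci had.

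Of the motors, the kinesin gene Kif13b averaged 5.41 ± 1.88 FPKM in ErbB2V664E mutants and 8.75 ± 1.56 FPKM in ErbB2V664E controls (log2 difference -0.63, limma adjusted p = 0.244). Dync1i1, a neuronal dynein intermediate chain, had 20.2, 25.8 and 26.2 FPKM in ErbB2V664E mutants, against 14.05, 17.7 and 13.3 FPKM in ErbB2V664E controls, above all controls (log2 difference 0.65, limma adjusted p = 0.265). Kif5a, the neuronal conventional kinesin heavy chain, overlapped in both lines at 388 to 458 FPKM in dnEGFR mutants and 232 to 448 FPKM in dnEGFR controls. Its relative Kif5c had 59.3, 168 and 144 FPKM in dnEGFR mutants, against 170, 176 and 168 FPKM in dnEGFR controls, with 1 mutant far below (log2 difference -0.60, limma adjusted p = 0.918). The kinesin light chain gene Klc2 averaged 42.4 ± 9.21 FPKM in ErbB2V664E mutants and 30.6 ± 8.75 FPKM in ErbB2V664E controls, with overlap (log2 difference 0.47, limma adjusted p = 0.437). Dynll1, a dynein light chain at a locus joined with Gm13829, had 11.2, 22.4 and 18.5 FPKM in ErbB2V664E mutants, against 23.9, 25.4 and 27.7 FPKM in ErbB2V664E controls. It also had 25.0, 29.2 and 22.6 FPKM in dnEGFR mutants, against 11.97, 7.22 and 27.0 FPKM in dnEGFR controls. The log2 differences were -0.59 (limma, adjusted p = 0.585) and 0.88 (limma, adjusted p = 0.867), and the dnEGFR groups overlapped. Dynlt3, another light chain, was as uneven within groups, with 41.3, 51.3 and 9.69 FPKM in dnEGFR mutants, against 7.80, 45.1 and 7.94 FPKM in dnEGFR controls.

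Leaving out 1 library changed which genes of the wider list were called in the ErbB2V664E line. Without ErbB2V664E mutant 1, limma called 4 loci of the list and 235 of all 13595 tested loci, against 38 of 13803 with that mutant. The 4 were the joined Tuba1a and Tuba1b locus (log2 difference -0.59, adjusted p = 0.0469), Agtpbp1 (-0.60, adjusted p = 0.0297), Kif13b (-0.86, adjusted p = 0.048) and Map1s (0.51, adjusted p = 0.0445), a MAP1 family gene of many tissues. Without ErbB2V664E control 2, Tubb2a alone of the list was called (1.72, adjusted p = 0.00639). That control was the only one above the mutants for Tubb2a, so the call follows from leaving it out and is no separate result. The count over all loci in that fit is not given here. The other 10 omissions called 0 loci of the list.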

How the data were processed

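Per the labels' protocols, poly(A) RNA was isolated, fragmented and primed with random hexamers for paired-end libraries; no step that keeps the strand is named, so fragments of overlapping genes on opposite strands cannot be assigned to 1 of them. Values were deposited as FPKM, which the authors obtained from StringTie, per the series' design text. The submitters' processing notes also name HISAT. No source used here gives versions, genome build or annotation.

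From the deposited FPKM, log2(FPKM + 1) was fitted with limma (version 3.58.1, R 4.3.3) using all 12 libraries and 1 mean for each group, with trended empirical Bayes and two-sided tests; there were 8 residual and 2.03 prior degrees of freedom. Loci with 1 FPKM or more in at least 3 libraries were kept (13803), and Benjamini-Hochberg adjustment ran over these, with a threshold of 0.05. Differences on this scale understate the change of low genes. An exact 0 can be a failed assignment, so such values are called listed at 0. The fit was tested on simulated data.

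The descriptions name the littermate of each mutant, so litters pair the libraries. Within the 6 pairs, deviations from group means correlated at 0.02, 0.01, 0.03, 0, 0.01 and -0.03. The fit reported has no litter term, and the fit with litter as a block is an alternative. With the block, limma called 3 loci in the dnEGFR line, against 13 without it, and 7 in the ErbB2V664E line, against 38 without it, and 0 of the 10 members in the dnEGFR line.

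The members and all lists were chosen with earlier results of these data known. Named genes were all members and, of the wider list, the textbook partners of the members and the 2 tested genes with the largest absolute log2 difference in each role and line. Kif1a, Tubb2a, Tuba1c, Tubb5 and Map1s fall outside this rule and were named after their values were seen. A marker of mature oligodendrocytes is not reported here, and its list was read without it. Alternatives were other pseudocounts, filters and scalings, the litter block, only the libraries of the line compared, summed loci per member symbol, and leaving out each library. Symbols of the wider list with several loci, such as Tubb2b (3 loci) and Vash1 (2 loci), were not summed and were read only from the locus with the highest mean. Promoters were read from RefSeq (GRCm38.p6). Tables and figures came from Python 3.11.15 (pandas 2.3.3, numpy 2.4.6, matplotlib 3.10.9).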

Additional observations from a re-analysis of the deposited data

Results flagged for a closer look

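For Mapt, the log2 difference in the dnEGFR line (0.17, each mutant above its littermate) minus that in the ErbB2V664E line (-0.67, each mutant below its littermate) was 0.84. The litter pairs of both lines moved in opposite directions, which follows from groups that did not overlap in either line. With the Mapt loci summed, the dnEGFR difference was -0.02, so its sign depends on the locus read. This difference between the lines was not tested, and the choice of Mapt fixed its direction in the ErbB2V664E line.

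For Mark1, a kinase that phosphorylates tau, the same quantity was 0.44. Mutants were above their littermates in 3 of 3 dnEGFR pairs (log2 difference 0.03) and below them in 3 of 3 ErbB2V664E pairs (log2 difference -0.41). Mark1 groups overlapped in both lines, and the share of loci with such opposite pairs is not given here. This difference between the lines was not tested.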

How the results depend on the processing

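With 3 mice per group, many values moved when 1 library was left out. Loci called by limma in the dnEGFR line numbered 13, against 3 with the litter block, 24 with only the 6 libraries of the line, and 9 to 34 when single libraries were left out. In the ErbB2V664E line there were 38, against 7 with the litter block, 7 with a filter at 5 FPKM, 25 with only the 6 libraries of the line, and 12 to 235 when single libraries were left out, the highest without ErbB2V664E mutant 1. The filter tests fewer loci and the smaller fit uses fewer libraries; the cause of the other changes was not tested. The litter block changed no call of a member in the dnEGFR line. The wider list had 0 calls in the dnEGFR line under each alternative other than summed loci, which was not read for it, and 0 to 4 in the ErbB2V664E line when libraries were left out. The member median ran from -0.14 to -0.06 in the dnEGFR line and from -0.30 to -0.13 in the ErbB2V664E line over the same omissions.

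Signs that changed belonged to values not called by limma. Under quantile normalisation the log2 difference became -0.020 for Map4 and -0.0040 for Slain1 in the dnEGFR line, and -0.0052 for Stmn2, -0.0038 for Mapre2 and -0.014 for Kif5c in the ErbB2V664E line. Median scaling gave -0.0040 for Map4 in the dnEGFR line, summed loci gave -0.020 for Mapt there, and a pseudocount of 5 gave -0.0064 for Dcx in the ErbB2V664E line. Leaving out single libraries gave, in the dnEGFR line, -0.082 to 0.087 for Map4, -0.12 to 0.084 for Map1a, -0.087 to 0.032 for Tubb3, -0.14 to 0.036 for Tuba1a, -0.049 to 0.28 for Map6 and -0.031 to 0.019 for Hdac6. The same omissions there gave -0.0070 to 0.22 for Fyn, -0.75 to 0.021 for Ttl, -0.065 to 0.014 for Camsap2, -0.19 to 0.30 for Dclk1, -0.10 to 0.18 for Slain1, -0.51 to 0.16 for Ttll7, -0.012 to 0.19 for Kif13b and -0.091 to 0.20 for Klc2. In the ErbB2V664E line they gave, for members, whose values there are a description, -0.13 to 0.026 for Map1a and -1.19 to 0.075 for Tppp. Of the wider list they gave -0.35 to 0.22 for Dcx, -0.092 to 0.11 for Stmn2, -0.058 to 0.026 for Stmn3, -0.056 to 0.16 for Sirt2, -0.52 to 0.48 for Tubb2b and -0.089 to 0.041 for Tubgcp3. They also gave -0.76 to 0.13 for Map9, -0.56 to 0.47 for Pafah1b1, -0.054 to 0.085 for Mapre2, -0.49 to 0.30 for Katnal1, -0.23 to 0.014 for Vash1 and -0.44 to 0.72 for Dynlt3. Without a change of sign, the omissions moved Stmn1 between -0.38 and -0.10 in the ErbB2V664E line, and Map2 between -0.26 and -0.10, Stmn4 between -0.25 and -0.060, Tppp between -0.17 and -0.048 and Tppp3 between -0.17 and -0.015 in the dnEGFR line.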
